A study of Homo sapiens with 6 samples.

Results

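The genes described here encode the 3 nuclear RNA polymerases and the factors that start Pol I and Pol III transcription. They are the protein-coding rows of the count file whose symbol begins with POLR1, POLR2 or POLR3 and a letter, together with RRN3, UBTF, TAF1A to TAF1D, BRF1 and BRF2. The rule found 42 rows of 32943, and all 42 passed the filter on low counts. By role they fall into 6 subunits that only Pol I has, 11 rows for Pol II, 10 for Pol III, 7 shared subunits and 8 initiation factors.

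RNA was sequenced from AGS cells, so labelled, a line from a human gastric adenocarcinoma. Control cells carried a control plasmid and the others pcDNA3.1-3xFlag-IGF2BP3, which adds a tagged copy of IGF2BP3, an RNA-binding protein that binds mRNAs. Both plasmids were delivered with Lipofectamine 3000 and all cells were harvested after 48 h, with 3 libraries in each group. The study's stated aim was to find genes downstream of IGF2BP3. Separate cultures are not mentioned in the labels, and the p-values below therefore rest on a spread that may be technical.

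Pol I transcribes the large ribosomal RNA precursor in the nucleolus, Pol II the mRNAs, and Pol III the tRNAs and other short RNAs. Each enzyme has its own pair of large catalytic subunits around one active site. A set of small subunits is built into all 3 enzymes, and another pair, POLR1C and POLR1D, into Pol I and Pol III only. Growing and cancer cells are known for high output from Pol I and Pol III, which supplies ribosomes and tRNAs.

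Library totals ran from 33555366 to 37633587 counts. IGF2BP3 itself was at 90.6, 102 and 100.2 CPM (counts scaled to a common library size) in the controls and 511, 573 and 664 with overexpression. Its log2 fold change was 2.58 ± 0.08 (SE; edgeR adjusted p = 1.278e-08; two-sided exact permutation p = 0.1, the smallest that 3 against 3 allows). In each group 1 library stood apart. Control replicate 1 differed from the other controls with a chi-square per gene of 9.30 and 8.74, where those differed from each other by 2.04. Overexpression replicate 3 gave 7.58 and 7.99 where its companions gave 2.48. The 7 epithelial markers were present (summed 9827 to 10301 CPM in controls, 8902 to 10280 with overexpression), and 2 of them, CDH1 and EPCAM, fell, by 0.56 and 0.16 on the log2 scale. Of 10 gastric epithelial markers, however, 9 were absent from the file or under a mean of 1 CPM, and 8 of 8 hepatocyte genes were present, with ALB at a mean of 1512 CPM in the controls, so the markers do not bear out the gastric label. All 8 hepatocyte genes fell with overexpression (summed 3234 to 3439 CPM in controls, 1813 to 2021 with overexpression), as did 4 of 5 tested fibroblast genes (210 to 220 CPM against 121 to 135). CD14 and LYZ of the immune list also fell (list sum 76.4 to 83.1 against 27.9 to 37.96 CPM), while PTPRC, CD3E and the 3 endothelial markers were near 0. Their part in the polymerase results was not tested, and in bulk RNA fewer cells of a type and less RNA per cell cannot be told apart.

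Of the 42 polymerase genes, 23 were higher with overexpression and 2 lower at an adjusted p under 0.05, and 17 did not pass. Over all 17747 genes tested, 37.7% passed, 18.5% higher and 19.2% lower. The median log2 fold change was 0.22 over the polymerase genes and −0.01 over all genes. Most polymerase genes are well expressed, and well-expressed genes were called higher more often. Among the 9262 protein-coding genes with a mean of at least 10 CPM, 28.9% were higher and 21.9% lower, and of the 36 polymerase genes above that level 21 were higher and 0 lower. The rises were small. The 3 libraries of each group did not overlap in CPM for 26 of the 42, against 50.6% of all genes (25.3% with overexpression higher and 25.4% with it lower). Among protein-coding genes with a mean of at least 10 CPM the groups did not overlap for 5840 of 9262. For the 36 polymerase genes above that level the number was 22, about the same share. POLR2G was the one called gene whose groups overlapped. With a fold of at least 1.5 required as well, 3 were higher, RRN3, BRF2 and POLR3C, and 1 lower, the second row under POLR2J3. Exons of 24 of the 42, and of IGF2BP3, overlap exons of a gene on the opposite strand in the annotation. Whether counting used the strand is not stated, so the counts of these 24 are uncertain to that extent. POLR1C, POLR1G, POLR1H, POLR2B, POLR3F, POLR3G, POLR3K, BRF2, TAF1A, TAF1D and UBTF are among them.

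The enzymes differed in how many of their own genes passed. All 6 Pol I subunits were higher, with a median log2 fold change of 0.37 and a range of 0.31 to 0.56. Of the 10 Pol III subunits 7 were higher and 1 lower, with a median of 0.27. Of the 11 Pol II rows 2 were higher and 1 lower, with a median of 0.08. Of the 7 shared subunits 2 were higher, with a median of 0.07, and of the 8 initiation factors 6 were higher, with a median of 0.31. These are counts of single-gene calls, and the difference between the enzymes over their subunit lists was not tested. Without control replicate 1 and overexpression replicate 3 together, where 19.4% of all genes were higher and 19.5% lower, the polymerase genes gave 28 higher and 3 lower. By role that was 6 of Pol I, 8 of Pol III with 1 lower, 5 of Pol II with 2 lower, 4 shared and 5 factors.

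**Figure D1:**
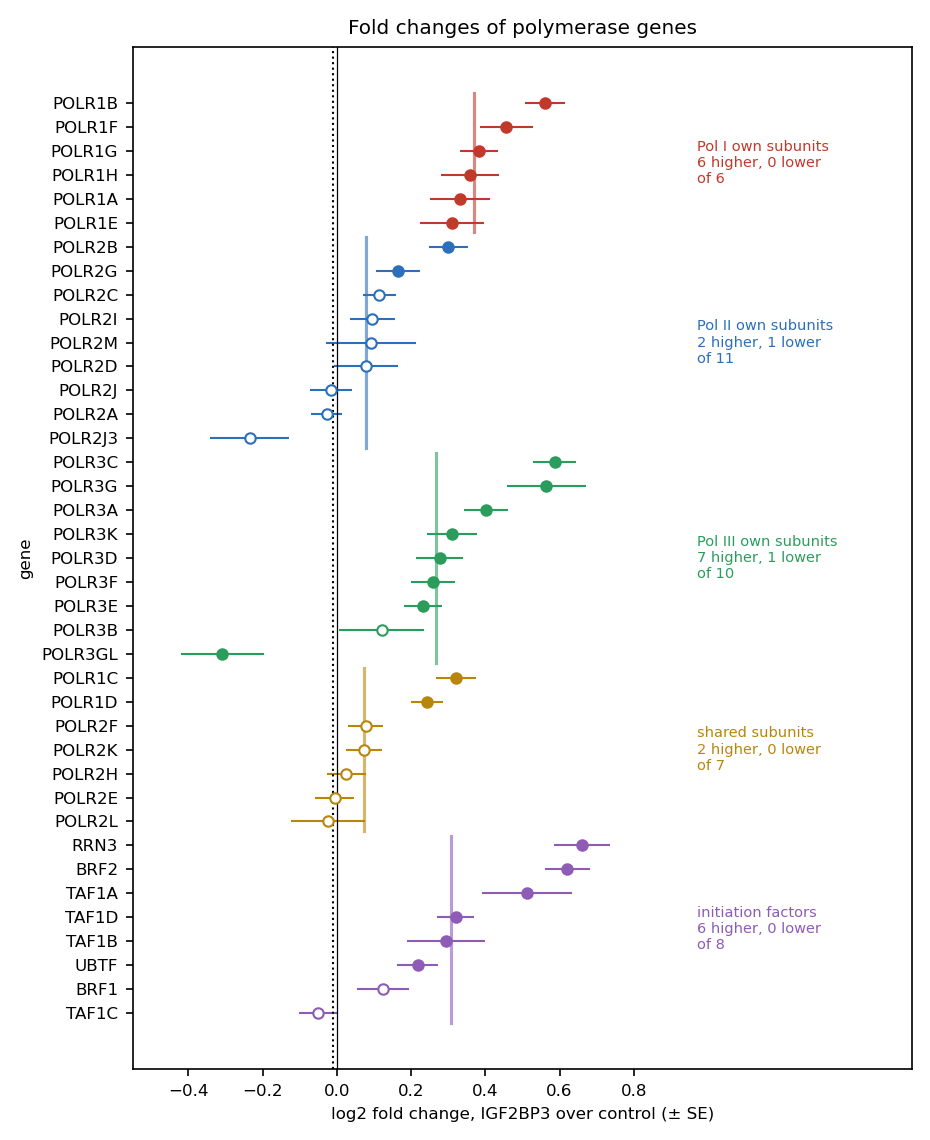
Each point is the log2 fold change of a gene, overexpression over control (x axis, bars ± SE), with genes grouped by role on the y axis; filled points passed an adjusted p under 0.05, the coloured vertical lines are role medians and the dotted line is the median of all genes. POLR2J2 and the second POLR2J3 row are counted but lie outside the x axis, and 1 counted Pol III gene is not drawn. All 6 Pol I points are filled and lie from 0.31 to 0.56, while 9 plotted Pol II points run from −0.24 to 0.30 and 2 of them are filled.

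The Pol I subunits begin with the catalytic pair. POLR1A, the largest subunit (chr2:86020216-86106155, GRCh38, minus strand), was at 85.6, 66.2 and 70.3 CPM in the controls and 88.7, 93.3 and 97.7 with overexpression. Control replicate 1 stood above the other controls and just under the lowest overexpression library, so the groups did not overlap but came close. Its log2 fold change was 0.33 ± 0.08 (adjusted p = 0.0069), and 0.45 without control replicate 1. POLR1B, the second-largest subunit (chr2:112541915-112577150, plus strand), was far steadier, at 41.6, 43.6 and 40.7 CPM against 60.7, 60.1 and 64.8. That is a log2 fold change of 0.56 ± 0.05 (1.47-fold, adjusted p = 1.259e-05), the largest of the 6.

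The remaining Pol I subunits are smaller than the catalytic pair. POLR1F belongs to the stalk, where RRN3 binds, and was at 32.6, 35.5 and 36.2 CPM in the controls and 44.8, 45.7 and 52.7 with overexpression (log2 fold change 0.46 ± 0.07, adjusted p = 0.0003949). POLR1G, which pairs with POLR1E in a dimer on the enzyme's lobe, was at 44.0, 41.8 and 43.3 CPM against 54.98, 57.7 and 55.7 (0.38 ± 0.05, adjusted p = 0.0001236). In both genes every overexpression library lay well above every control. POLR1H, the subunit for RNA cleavage, was at 14.4, 12.4 and 12.9 CPM against 16.8, 17.4 and 16.8 (0.36 ± 0.08, adjusted p = 0.003335). POLR1E, the partner of POLR1G, was at 46.6, 35.6 and 38.04 CPM against 47.4, 51.5 and 50.3, and control replicate 1 nearly reached the overexpression libraries. Its log2 fold change was 0.31 ± 0.09 (adjusted p = 0.01301). This call was lost, at adjusted p of 0.05386, 0.05466 and 0.05005, when control replicate 2, control replicate 3 or overexpression replicate 2 was left out.

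The Pol II catalytic subunits did not move together. POLR2A, whose repeated tail carries the phosphorylation marks of the transcription cycle (chr17:7484366-7514616, plus strand), was at 163, 163 and 164 CPM in the controls and 155, 163 and 163 with overexpression. The groups lay on top of each other, with a log2 fold change of −0.03 ± 0.04 (adjusted p = 0.6358). POLR2B, the second-largest subunit (chr4:56977722-57031168, plus strand), was at 78.2, 85.6 and 82.2 CPM against 99.1, 97.7 and 106. All overexpression libraries lay above all controls, and its log2 fold change was 0.30 ± 0.05 (adjusted p = 0.0008326).

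POLR2G, a stalk subunit, was at 68.0, 74.1 and 68.1 CPM in the controls and 79.3, 83.1 and 73.2 with overexpression. The groups overlapped, and although it passed (log2 fold change 0.16 ± 0.06, adjusted p = 0.04437) the call was lost when control replicate 1 or 3 or overexpression replicate 1 or 2 was left out (adjusted p = 0.08854 to 0.1652). POLR2C, which with POLR2J starts assembly of the enzyme, was at 149, 146 and 154 CPM against 162, 168 and 156. Its groups did not overlap, but the log2 fold change of 0.11 ± 0.04 did not pass (adjusted p = 0.06228). It passed without overexpression replicate 3 (adjusted p = 0.02247). The other stalk subunit, POLR2D, came out at 0.08 (adjusted p = 0.5063). It came to 0.21 without control replicate 1 (adjusted p = 0.005445) and −0.00063 without control replicate 2. POLR2I, a small subunit, had 0.10 (adjusted p = 0.2379), and 0.15 with a pass without overexpression replicate 3 (adjusted p = 0.04788). With the GC and length trend removed POLR2I had 0.30 and passed (adjusted p = 7.183e-05), and POLR2C (0.17, adjusted p = 0.003347) and POLR2J (0.13, adjusted p = 0.01614) also passed. With TMM scaling alone POLR2J had −0.02, and POLR2M, a Pol II-associated protein that shares exons with GCOM1 and is uncertain, had 0.09.

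The POLR2J copies are nearly identical in sequence, so their reads cannot be assigned with certainty. POLR2J3 stood at −0.24, which did not pass, and at −0.34, with a pass, without control replicate 3 (adjusted p = 0.02349). Without control replicate 1 it stood at −0.12 (adjusted p = 0.3489), and with the GC and length trend removed at −0.10 (adjusted p = 0.4436). The second row under that symbol was at 1.86, 0.63 and 0.72 CPM in the controls and 0.11, 0.37 and 0.35 with overexpression. It was called lower (−1.96 ± 0.50, adjusted p = 0.008442), and its value was −1.30 without control replicate 1, where it was highest. POLR2J2, at a mean of 0.77 CPM in the controls, did not pass. With the 4 POLR2J rows set aside, 2 of 7 Pol II subunits were higher and 0 lower, with a median of 0.10.

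**Figure D2:**
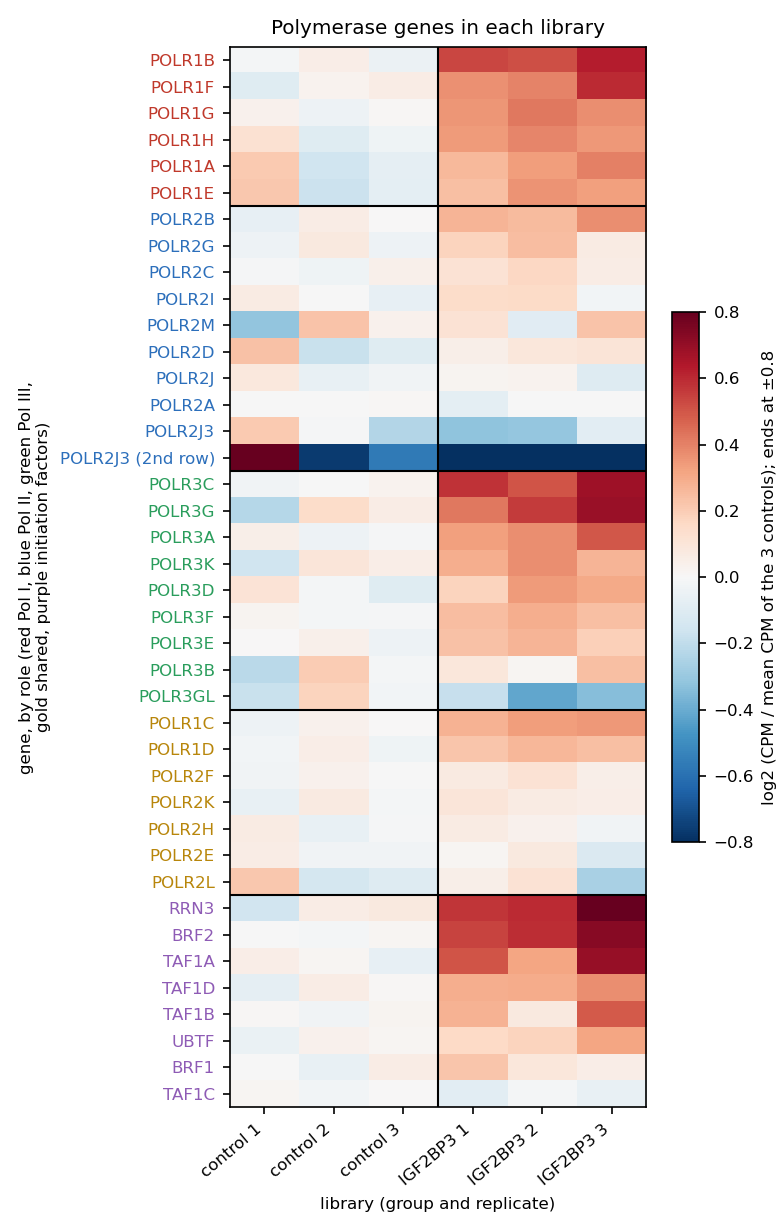
Rows are polymerase genes grouped and coloured by role, columns are the 6 libraries, and the colour is the log2 ratio of CPM to the mean of the 3 controls (scale ends at ±0.8; POLR2J2, under 1 CPM, is not drawn). The Pol I block is red in all 3 overexpression libraries, the Pol II block is mostly pale, with POLR2B the reddest row and the scarce second POLR2J3 row blue, and control replicate 1 is high for POLR1A, POLR1E, POLR2D and POLR2L.

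In Pol III, the catalytic pair again split. POLR3A, the largest subunit (chr10:77969251-78029545, minus strand), was at 40.04, 37.8 and 38.6 CPM in the controls and 48.7, 50.3 and 54.8 with overexpression, a log2 fold change of 0.40 ± 0.06 (adjusted p = 0.0002418). POLR3B, the second-largest (chr12:106357658-106510198, plus strand), was at 7.17, 9.59 and 8.23 CPM against 8.89, 8.42 and 9.83. Its groups overlapped and its 0.12 ± 0.11 did not pass (adjusted p = 0.4344).

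POLR3C, POLR3F and POLR3G or POLR3GL form the part of Pol III that meets the initiation factor TFIIIB. POLR3C (chr1:145824088-145842505, plus strand) was at 36.9, 37.6 and 38.4 CPM in the controls and 56.2, 53.2 and 60.1 with overexpression. The distance between the groups was several times the spread within them, with a log2 fold change of 0.59 ± 0.06 (1.50-fold, adjusted p = 1.456e-05), the largest of the Pol III subunits. POLR3F rose by less, with 0.26 ± 0.06.

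POLR3G and POLR3GL are paralogs that occupy the same place in the enzyme. POLR3G is known from stem and tumour cells and POLR3GL from most differentiated tissues. POLR3G (chr5:90471748-90514553, plus strand) was at 8.27, 10.7 and 10.1 CPM in the controls and 13.0, 14.3 and 15.6 with overexpression (log2 fold change 0.56 ± 0.11, adjusted p = 0.00136). POLR3GL (chr1:145964702-145978848, plus strand) was at 7.76, 9.92 and 8.65 CPM against 7.71, 6.59 and 6.93, a narrow gap between the groups. Its log2 fold change was −0.31 ± 0.11 (adjusted p = 0.04576). That call was lost when control replicate 2 or 3 or overexpression replicate 2 or 3 was left out (adjusted p = 0.08752 to 0.1906), and with DESeq2 (0.0594) and limma-voom (0.05188). POLR3GL shares exons with AC243547.3 on its own strand and is uncertain for that reason too.

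Set against each other within a library, in FPKM (fragments scaled to transcript length and library size), POLR3G made up 32.4%, 32.7% and 34.4% of the pair in the controls. With overexpression it made up 43.1%, 49.4% and 50.4%. The share was higher in every overexpression library than in every control, by 14.5 percentage points on average (two-sided exact permutation p = 0.1, the smallest possible), and by 14.4 points when raw counts were used. Leaving out each library in turn gave 13.1 to 16.8 points. POLR3C lies 122.197 kb upstream of POLR3GL on chromosome 1, and both are read from the plus strand, so these neighbours had fold changes of opposite sign.

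**Figure D3:**
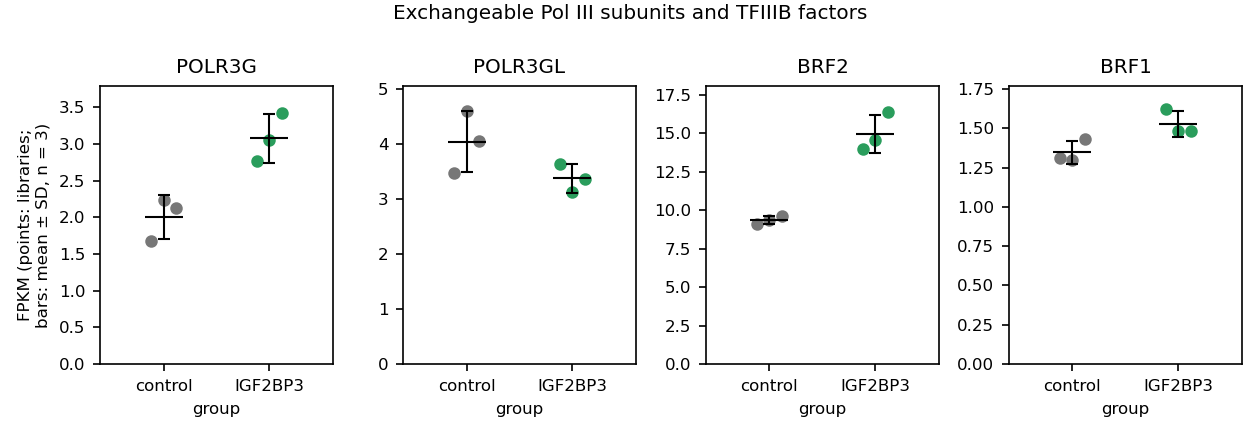
FPKM (y axes, from 0) of the paralogs POLR3G and POLR3GL and of the TFIIIB subunits BRF2 and BRF1 in control and IGF2BP3 libraries; points are libraries and bars are the mean ± SD (n = 3). POLR3G and BRF2 are higher in all 3 overexpression libraries, POLR3GL overlaps between the groups on this scale, and BRF1 lies between 1.3 and 1.6.

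The other Pol III subunits rose by less or did not pass. POLR3E, which with POLR3D forms a dimer used in initiation and termination, was at 48.8, 49.9 and 47.3 CPM in the controls and 57.2, 58.8 and 55.5 with overexpression (0.23 ± 0.05, adjusted p = 0.003481). POLR3D rose by 0.28 and POLR3K, the subunit for RNA cleavage, by 0.31. CRCP, a Pol III subunit that the symbol rule does not catch, had 0.16 and did not pass (adjusted p = 0.26), but had 0.35 and passed without control replicate 1 (adjusted p = 0.000374).

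The shared subunits fell into 2 sets. POLR1C and POLR1D, which pair to start the assembly of Pol I and of Pol III, were both higher. POLR1C was at 30.5, 32.2 and 31.5 CPM in the controls and 38.1, 39.7 and 39.9 with overexpression (0.32 ± 0.06, adjusted p = 0.000739). POLR1D was at 118, 124 and 117 CPM against 139, 144 and 141 (0.24 ± 0.04, adjusted p = 0.001034). In both genes the groups lay clear of each other.

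Of the 5 subunits built into all 3 enzymes, 0 passed, and their median log2 fold change was 0.03. POLR2F was at 72.6, 75.9 and 74.1 CPM in the controls and 78.1, 80.3 and 76.5 with overexpression, a narrow gap (0.08 ± 0.05, adjusted p = 0.2201). POLR2K was at 91.9, 100.7 and 94.6 CPM against 102, 100.2 and 99.5, with overlapping groups (0.07 ± 0.05, adjusted p = 0.2679). POLR2H had 0.03, POLR2E −0.01 and POLR2L −0.02. In POLR2L, control replicate 1 was 1.26 times the mean of the other controls and overexpression replicate 3 was 0.79 times the mean of the others in its group. Without those 2 libraries POLR2L had 0.20 (adjusted p = 8.07e-06) and POLR2E 0.08 (adjusted p = 0.0493), and both passed.

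This result also depends on base composition. Of the 5 subunits shared by all 3 enzymes, POLR2E, POLR2F, POLR2H and POLR2L have GC-rich transcripts (57.0% to 60.1%), and POLR2K does not (35.2%). The median of the 5 was 59.4% GC and 1802 bases, against 48.3% and 3098 bases over all genes with a transcript match. When a trend on GC content and length was removed from each library, 25.7% of all genes were higher and 17.1% lower. In that fit 4 of the 5 were higher, with POLR2K not passing (adjusted p = 0.1122), and their median was 0.18. The same fit called 6 of 6 Pol I subunits higher (median 0.40), 8 of 10 Pol III subunits (0.32), 5 of 11 Pol II rows with 1 lower (0.07) and 7 of 8 factors (0.30). The median of all genes in it was 0.04. The Pol I, Pol III and factor medians therefore stayed above the median of the 11 Pol II rows in both fits. The median of the shared subunits moved from near the all-gene median to between them. The Pol II median takes in POLR2J2 (−0.71), POLR2J3 (−0.10) and the second POLR2J3 row (−1.98), whose reads are uncertain. Outside the POLR2J copies, POLR2B, POLR2C, POLR2G and POLR2I passed in the trend-removed fit, at 0.27, 0.17, 0.23 and 0.30. POLR2A, POLR2D and POLR2M did not pass, at 0.06, 0.07 and 0.05.

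**Figure D4:**
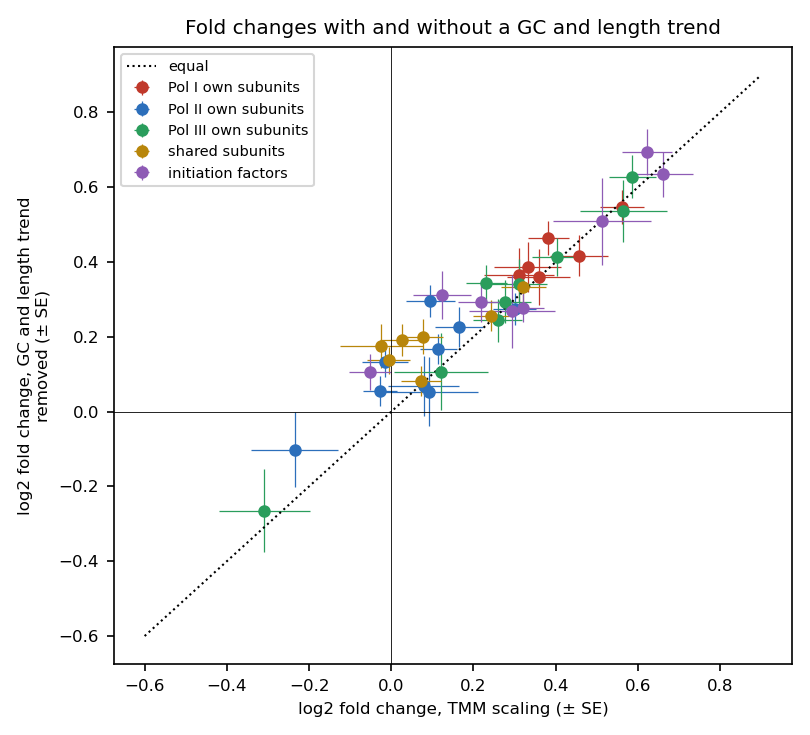
Each point is a polymerase gene, coloured by role, with its log2 fold change under TMM scaling (x axis) against that with a GC and length trend removed (y axis), bars ± SE; the dotted line marks equal values, and the POLR2J2 and second POLR2J3 rows are not drawn. The shared subunits have medians of 0.07 and 0.19 on the axes. POLR2E, POLR2F, POLR2H and POLR2L lie well above the line, while POLR1C, POLR1D and POLR2K lie near it. Of the Pol I points POLR1G lies furthest above the line, at 0.38 and 0.46.

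Among the initiation factors, RRN3, which joins Pol I to its promoter complex, was at 50.5, 58.6 and 59.4 CPM in the controls and 83.6, 85.1 and 97.6 with overexpression (chr16:15060022-15094317, minus strand). Its log2 fold change was 0.66 ± 0.07 (1.58-fold, adjusted p = 3.956e-05), the largest rise of the 42. RRN3 has near-identical pseudogene copies, which makes its counts uncertain. RRN3P3 was at 3.80, 3.52 and 3.13 CPM against 5.30, 4.48 and 4.73 and also rose (0.47, adjusted p = 0.01236), and RRN3P1 had 0.35 (adjusted p = 0.07685). TAF1A, a subunit of the promoter selectivity factor SL1, was at 4.78, 4.66 and 4.41 CPM against 6.53, 5.75 and 7.47 (0.51 ± 0.12, adjusted p = 0.005424). TAF1D of the same complex was at 89.0, 97.5 and 94.1 CPM against 114, 115 and 121 (0.32 ± 0.05, adjusted p = 0.0003727), and small nucleolar RNAs lie in its exons. Both stood clear of the controls in every library.

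TAF1B had 0.29 (adjusted p = 0.04446). Its call held only without overexpression replicate 2 when single libraries were left out, and its value was 0.18 without overexpression replicate 3 (adjusted p = 0.1709). TAF1C, the fourth of these SL1 subunits, had −0.05 and did not pass. UBTF, the architectural factor of active ribosomal DNA, rose by 0.22 ± 0.05 (adjusted p = 0.007934). It rose by 0.14 without control replicate 1 and overexpression replicate 3 together.

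BRF1 and BRF2 are alternative subunits of TFIIIB, BRF1 for tRNA-type promoters and BRF2 for promoters that lie upstream of the gene. BRF2 was at 30.5, 30.2 and 30.9 CPM in the controls and 44.4, 46.0 and 50.5 with overexpression (0.62 ± 0.06, 1.54-fold, adjusted p = 1.496e-05). The 3 controls were within 1 CPM of each other and far from every overexpression library. BRF1 was at 21.3, 20.4 and 22.3 CPM against 24.9, 22.7 and 22.1, with overlapping groups (0.12 ± 0.07, adjusted p = 0.188). With the GC and length trend removed BRF1 had 0.31 and passed (adjusted p = 0.001126). In FPKM, BRF2 made up 87.4%, 87.8% and 87.1% of the pair in the controls and 89.6%, 90.8% and 91.7% with overexpression. The difference was 3.25 percentage points (two-sided exact permutation p = 0.1) and 7.97 points from raw counts. From raw counts BRF2's share was 58.9%, 59.6% and 58.1% in the controls and 64.0%, 67.0% and 69.6% with overexpression. The size of the share therefore depends on the gene lengths used for FPKM, which are not known here. The longest annotated transcripts have 3809 bases for BRF1 and 2603 for BRF2.

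The catalytic subunits were also compared within each library, as ratios of raw counts chosen after the values were seen. POLR1A over POLR2A was 0.525, 0.405 and 0.427 in the controls and 0.572, 0.571 and 0.598 with overexpression, a log2 difference of 0.37. POLR3A over POLR2A differed by 0.43 and POLR1B over POLR2B by 0.26, and in these 3 ratios the groups did not overlap. POLR3B over POLR2B differed by −0.17. The two-sided exact permutation p was 0.1 for the first 3, the smallest possible, and 0.2 for the last, or 0.1333 and 0.2 after Benjamini-Hochberg adjustment over the 4 ratios.

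Levels per transcript length differ far more between the genes than between the groups. In FPKM the most abundant was POLR2L, at 114 ± 13.2 (SD, n = 3) in the controls and 116 ± 14.0 with overexpression. POLR2I (52.8 ± 1.3 in the controls), POLR2J (51.3 ± 1.6), POLR2K (47.7 ± 3.0) and POLR2E (39.97 ± 0.55) followed. POLR2I and POLR2J differed by less than the larger of their SDs, and POLR2J and POLR2K by slightly more. Among the catalytic subunits POLR2A stood at 16.3 ± 0.4 and POLR2B at 11.6 ± 0.7 in the controls, above POLR1B (3.88 ± 0.17), POLR3A (3.64 ± 0.06), POLR1A (3.13 ± 0.36) and POLR3B (1.46 ± 0.24). POLR1B and POLR3A were apart by little more than their spread.

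Summed FPKM of the Pol I subunits was 43.5, 40.2 and 42.0 in the controls and 54.1, 57.0 and 59.4 with overexpression. For Pol III it was 57.0, 62.6 and 61.6 against 74.1, 76.7 and 78.1. For the Pol II rows it was 220, 219 and 217 against 239, 244 and 234, and in these 3 sums every overexpression library lay above every control. For the subunits shared by all 3 enzymes it was 239, 219 and 221 against 241, 249 and 218, with overlapping groups. These sums are of transcript levels, not of assembled enzymes.

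**Figure D5:**
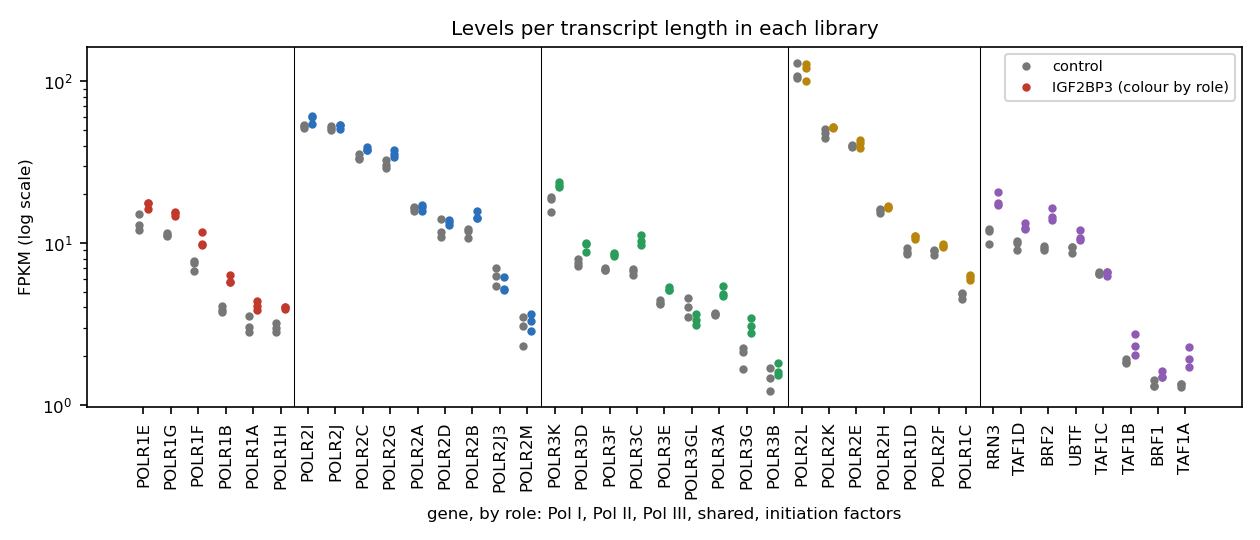
FPKM of each polymerase gene with a control mean of at least 1 (log y axis) in each library, grouped by role along the x axis; grey points are the 3 controls and coloured points the 3 overexpression libraries. Levels run from above 100 FPKM for POLR2L to under 2 for POLR3B, TAF1B, BRF1 and TAF1A, and the coloured points lie above the grey ones throughout the Pol I block.

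The promoters were searched as a description of the genes. RefSeq sequences (GRCh38.p14) of the 250 bases before the gene start were at hand for 31 of the 42. Both strands were searched for 6 motifs. The E-box CACGTG was found in 3 of the 31, in POLR1G, POLR3A and POLR3C, a share near the 8.88% of the promoters of 10919 tested protein-coding genes. The stretches that hold it, all from genes called higher, are given as the members' instances of this motif, 5′ to 3′ on the gene's strand with the E-box in capitals:
POLR1G, chr19:45406620-45406643, plus strand: cccctttggatcCACGTGgtctgc
POLR3A, chr10:78029533-78029562, minus strand: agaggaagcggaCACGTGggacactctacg
POLR3C, chr1:145823992-145824021, plus strand: gcccgcgtcggtCACGTGagttggccaggc

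POLR3GL, the Pol III subunit called lower, is shown beside them. It holds the CCAAT box once on each strand. POLR3K, called higher, also has this box and POLR3C does not. The 80 bases around the boxes contain no exon of the annotation, and the capitals mark CCAAT and its reverse complement:
POLR3GL, chr1:145964610-145964689, plus strand: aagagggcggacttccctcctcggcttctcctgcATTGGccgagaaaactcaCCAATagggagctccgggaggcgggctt

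CCAAT was found in 9 of the 31 promoters, 5 of the 18 called higher among them, against 35.1% of the tested protein-coding genes, and the GC box GGGCGG in 18 against 66.4%. The ETS core CCGGAAG was in 8 against 15.3%, the NRF1 core in 6 against 10.0% and TATAAA in 1, POLR2M, against 5.7%. Some E-box stretches overlap annotated exons, those of POLR1G and POLR3C along their whole length. A match says only that the letters are there, not that a factor binds.

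Genes that work with the polymerases were counted in lists set from general knowledge, with earlier results of these data known. No list was tested as a set. Of all genes tested, 18.5% were higher and 19.2% lower, or 25.7% and 17.1% with the GC and length trend removed. Among protein-coding genes with a mean of at least 10 CPM, 28.9% were higher and 21.9% lower. Without control replicate 1 and overexpression replicate 3, 19.4% of all genes were higher and 19.5% lower. The counts below are to be read against these shares. Around Pol III, 5 of 9 genes of TFIIIB, TFIIIC and TFIIIA were higher and 0 lower, with a median log2 fold change of 0.22. GTF3A, the TFIIIA protein, had 0.30 (adjusted p = 0.00023) and GTF3C6 of TFIIIC 0.30. With the GC and length trend removed 8 of the 9 were higher. Of the 5 SNAPc genes, whose complex works with BRF2 promoters, 2 were higher and 0 lower, with a median of 0.17. SNAPC2 rose by 0.35, and by 0.56 with the trend removed. SNAPC4 rose by 0.17, and by 0.34 with the trend removed. The call of SNAPC4 was lost when control replicate 2 or 3 or overexpression replicate 2 or 3 was left out (adjusted p = 0.05167 to 0.1439). MAF1, the repressor of Pol III, had 0.05 and did not pass (adjusted p = 0.55), but it had 0.23 and passed with the GC and length trend removed (adjusted p = 0.0009936). It also passed, at 0.10, without control replicate 1 and overexpression replicate 3 together (adjusted p = 0.03131). SSB, the La protein that binds new Pol III transcripts, rose by 0.26.

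Around Pol I, 4 of 7 termination, silencing and nucleolar genes were higher and 0 lower, with a median of 0.29. DDX21, a nucleolar RNA helicase, was at 203, 245 and 244 CPM in the controls and 333, 337 and 395 with overexpression (0.62 ± 0.08, adjusted p = 8.242e-05). NOLC1, a nucleolar phosphoprotein, rose by 0.45 ± 0.05 (adjusted p = 6.067e-05).

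Around Pol II, 8 of 19 general initiation factors were higher and 1 lower, with a median of 0.16. The one lower was ERCC2 of TFIIH (−0.18, adjusted p = 0.048), and with the trend removed, or without the 2 libraries that stood apart, 11 were higher and 0 lower. GTF2H1 and CDK7, both of TFIIH, rose by 0.44 and 0.35. Of 15 TFIID subunits 8 were higher and 0 lower (median 0.18), TAF1 by 0.44 and TAF9 by 0.21, and 5 were higher without control replicate 1 and overexpression replicate 3. Of 21 pausing and elongation genes 10 were higher and 0 lower (median 0.18), and 16 with the trend removed. NELFA, a subunit of the pausing factor, rose by 0.55 and MEPCE, which caps and stabilises the RNA that holds P-TEFb, by 0.38.

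Enzymes of the POLR2A tail moved both ways, with 5 of 9 higher and 3 lower. RPAP2, a phosphatase of that tail that also serves in import of the enzyme, was at 19.6, 18.6 and 19.5 CPM against 26.9, 28.7 and 31.9 (0.60 ± 0.07, adjusted p = 7.385e-05). CTDSPL, one of the small tail phosphatases, fell from 149, 141 and 141 CPM to 82.0, 79.1 and 67.6 (−0.91 ± 0.07, adjusted p = 2.385e-06). Of 14 genes for polymerase assembly and nuclear import 8 were higher and 2 lower (median 0.27), and 11 were higher and 1 lower with the trend removed. RPAP2 is in this list too, and PFDN2, a prefoldin subunit, rose by 0.35.

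Other polymerases were counted in the same way. All 5 genes of mitochondrial transcription were higher (median 0.24), TEFM, an elongation factor, by 0.36 and TFB2M, an initiation factor, by 0.34, and 4 without control replicate 1 and overexpression replicate 3. Of 12 DNA polymerase genes 1 was higher and 3 lower, with a median of −0.00009, where 18.5% of all genes were higher and 19.2% lower. POLD1, the catalytic subunit of a replicative polymerase, fell by 0.48 and POLE3 rose by 0.28. With the trend removed 3 were higher and 2 lower, and POLD1 had −0.28.

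RNAs made by Pol III are mostly without a poly(A) tail, so their counts in polyA libraries may not follow their levels in the cells. Of 7 rows in the file 3 could be tested. RPPH1, the RNA of ribonuclease P, was at 249.97, 243 and 232 CPM in the controls and 341, 345 and 346 with overexpression (0.51 ± 0.04, adjusted p = 4.078e-06). RN7SL1, the RNA of the signal recognition particle, was at 331, 63.3 and 57.0 CPM against 55.6, 55.6 and 42.0. It was called lower (−1.56 ± 0.52, adjusted p = 0.03183), but control replicate 1 set that value, and without it the value was −0.24 (adjusted p = 0.06629). Leaving out any overexpression library also ended the call (adjusted p = 0.07736 to 0.1161). RMRP was at 4.98, 4.18 and 3.33 CPM against 3.13, 3.35 and 2.04 and was called lower (−0.55, adjusted p = 0.04482), although its groups overlapped. With the GC and length trend removed RPPH1 stayed higher and RN7SL1 lower (adjusted p = 0.03184), and RMRP was not called. Without the 2 libraries that stood apart, RPPH1 was higher and 0 were lower. RN7SL1 has near-identical copies and is uncertain.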

How the data were processed

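Poly(A) RNA from 6 libraries was sequenced. Per the file headers, the deposited files hold whole-number counts for each gene and FPKM, which the authors gave to 2 decimals. HISAT2, DESeq2 and the build GRCh38 appear in the submitters' processing notes, without versions. The sources used here do not name the counting program, its annotation or its strand setting.

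The test was edgeR's (4.0.16, under R 4.3.3) on the counts. The filter was filterByExpr (minimum count 10, minimum total 15), scaling TMM, and the test the quasi-likelihood F test over 17747 genes with Benjamini-Hochberg adjusted p under 0.05. CPM are scaled to TMM-adjusted library sizes. FPKM served only for levels between genes, paralog shares and an alternative fit. Gene positions, transcript GC content and length (longest transcript) are from GENCODE release 29, matched for 98.6% of tested genes. The trend on GC and length was a spline with 5 degrees of freedom removed per library. Libraries were grouped by their labels. The pipeline was tested on simulated counts.

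The members and the gene lists were chosen with earlier results of these data known. Named with full values were IGF2BP3, the catalytic subunits, the paralog pairs and, in each role, the 4 members with the smallest p. In each other list the 2 with the smallest p were named, and any further gene was chosen after its values were seen. Alternatives were other scalings, filters and tools (DESeq2 1.42.0, limma 3.58.1), the replicate block, the trend removal, each library left out and 2 stricter thresholds. A fit without both control replicate 1 and overexpression replicate 3 was added after seeing the data. One gene is counted in the totals but not reported here.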

Additional observations from a re-analysis of the deposited data

How the results depend on the processing

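Of the 25 polymerase genes called, 20 kept their call under all 19 settings other than the 2 stricter thresholds, and POLR1E, POLR2G, POLR3GL, TAF1B and the second POLR2J3 row did not. DESeq2 size factors, TMM without IGF2BP3 and mitochondrial genes, and the replicate block changed none of the 42. Control and overexpression libraries of the same number had deviations correlated at 0.089, −0.043 and 0.082, and those of different numbers at −0.139 to 0.084. No pairing by number was seen, but so few values cannot show whether same-numbered libraries were handled together. Upper-quartile scaling moved the median of all genes to −0.05. The 1 CPM filter left POLR2J2 and the second POLR2J3 row untested. The cause of the changes below was not tested unless the setting itself shows it.

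With each library left out in turn, 20 to 24 polymerase genes were higher and 1 to 2 lower. Of all genes, 2675 to 2982 were higher and 2809 to 3125 lower in these fits, of 18070 to 18165 tested. Pol II rows numbered 1 to 4 higher and 1 to 2 lower, and 0 to 1 Pol III subunits were lower. An adjusted p under 0.01 gave 2090 higher and 2203 lower of all genes, 1 Pol II row higher, 0 Pol III subunits lower and 1 polymerase gene lower. Requiring a fold of at least 1.5 gave 406 higher and 1268 lower of all genes, 3 polymerase genes higher and 1 lower, 0 Pol I subunits, 0 Pol II rows, 1 Pol III subunit, 0 shared subunits and 2 factors higher, and 0 Pol III subunits lower. Pol II rows higher numbered 1 with upper-quartile scaling, 4 with limma on log2(FPKM + 1) or log2(FPKM + 0.1), 5 with the trend removed, with or without the replicate block, and 5 without control replicate 1 and overexpression replicate 3. Pol II rows lower numbered 2 with no filter and without those 2 libraries, and 0 with the 1 CPM filter and with log2(FPKM + 1). Pol III subunits lower numbered 0 with no filter, DESeq2, limma-voom, either FPKM fit and the trend removed, with or without the block. Polymerase genes lower numbered 1 with the 1 CPM filter, DESeq2, limma-voom, log2(FPKM + 0.1) and the trend removed, with or without the block, and 0 with log2(FPKM + 1). Shared subunits higher numbered 6 with the trend removed, with or without the block, and 4 without the 2 libraries. The BRF2 share differed by 7.97 points from raw counts in place of 3.25.

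The genes that changed sign had values near 0. POLR2A (−0.03) came to 0.022 with log2(FPKM + 1), 0.024 with log2(FPKM + 0.1), 0.055 with the trend removed and 0.055 with the replicate block as well, and −0.039 to 0.0023 with single libraries left out. POLR2E (−0.01) came to 0.018 with no filter, 0.044 and 0.044 in the FPKM fits, 0.137 with the trend removed, 0.136 with the replicate block as well, −0.047 to 0.046 with single libraries left out and 0.076 without the 2 libraries. POLR2J (−0.02) came to 0.0079 with no filter, 0.036 and 0.036 in the FPKM fits, 0.132 with the trend removed, with or without the replicate block, −0.043 to 0.027 with single libraries left out and 0.070 without the 2 libraries. POLR2L (−0.02) came to 0.028 in both FPKM fits, 0.175 with the trend removed, with or without the replicate block, −0.095 to 0.096 with single libraries left out and 0.202 without the 2 libraries. TAF1C (−0.05) came to 0.00047 and 0.00050 in the FPKM fits, 0.106 with the trend removed and 0.105 with the replicate block as well. POLR2H (0.03) came to −0.019 with upper-quartile scaling and −0.0017 to 0.059 with single libraries left out. POLR2D (0.08) ranged from −0.00063 to 0.213 and POLR2M (0.09) from −0.044 to 0.222 with single libraries left out, and without the 2 libraries POLR2M came to −0.116 and POLR3B (0.12) to −0.039.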
